A study of Mus musculus with 9 samples.

Results

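The insulin receptor substrates and FOXO axis was followed through 10 genes that were chosen by name out of the 54532 genes listed: the receptors Insr and Igf1r, the adaptors Irs1 and Irs2, the kinases Akt1 and Akt2, the transcription factors Foxo1 and Foxo3, and the binding proteins Igfbp3 and Igfbp4. The cells were B.END3, labelled as a line of brain microvessel endothelial cells from C57BL/6 mice. The label calls them rat cells in one field, while the organism is given as mouse. There were 3 libraries of total RNA in each of 3 groups. Ctrl cells were labelled untreated. Ep1 and Ep2 cells had formed a monolayer, were kept for 90 min with 300 µg/mL porfimer sodium, a photosensitizer that forms reactive oxygen species in red light, and were then lit with a 635 nm laser at 100 mW/cm2, to 10 J/cm2 in Ep1 and 20 J/cm2 in Ep2. The time between light and lysis is not given. None of the 9 libraries had the photosensitizer alone or the light alone, so the effects of the agents cannot be told apart. All groups are a single cell line, and no source says that the libraries of a group came from separate cultures, so p-values measure only the spread between these libraries, which may be technical.

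Insulin and the insulin-like growth factors bind receptors with tyrosine kinase activity, which phosphorylate the adaptors IRS1 and IRS2. The adaptors recruit PI3K, the lipid signal activates AKT, and AKT phosphorylates FOXO proteins, which then leave the nucleus and stop driving their target genes. FOXO factors are known to drive transcription of the receptor and adaptor genes in return, and Irs2 in particular is known as a gene whose transcript level changes quickly with hormonal and nutrient state. In endothelial cells the axis is known for its part in nitric oxide production, in quiescence and in vessel growth. RNA levels show transcript abundance and not the phosphorylation or location of these proteins.

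The promoters of the 2 adaptor genes are shown because the adaptors have the same role and their transcripts changed differently. They are the 150 bases before the RefSeq transcription start in GRCm38.p6, read along the gene. As the files place the genes, the stretch of Irs1 ends 23 bases upstream of the gene and that of Irs2 ends 471 bases upstream. Capitals mark the E-box CACGTG and the letters TGTTTTG, the core of the insulin response element to which FOXO factors are known to bind.
Irs2, chr8:11008930-11009079, minus strand: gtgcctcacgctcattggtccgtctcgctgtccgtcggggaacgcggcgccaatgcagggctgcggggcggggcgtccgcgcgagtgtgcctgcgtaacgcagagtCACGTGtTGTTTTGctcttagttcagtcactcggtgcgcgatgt
Irs1, chr1:82291440-82291589, minus strand: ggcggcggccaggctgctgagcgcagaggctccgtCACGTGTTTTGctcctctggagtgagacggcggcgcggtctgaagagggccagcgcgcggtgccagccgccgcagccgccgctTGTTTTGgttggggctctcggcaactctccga

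In Irs2 the E-box spans positions -44 to -39 from the start, and a single base separates it from the TGTTTTG at -37 to -31. In Irs1 the E-box at -115 to -110 shares its last letters with a copy of the core at -111 to -105, and a further copy stands at -32 to -26. Searched on both strands in windows of 250 bases before to 50 after the start, CACGTG occurred in 7.15% of 32851 RefSeq windows and TGTTTTG in 6.28%. Both occurred together in 134 windows, or 0.408%. Of the 13 windows that RefSeq gives for 9 of the 10 genes, these letters were in those of Irs1 and Irs2. The FOXO consensus letters GTAAACA, held by 3.65% of all windows, were in a single window of Akt1, on the opposite strand. The cAMP response element TGACGTCA, held by 1.79% of all windows, and the AP-1 letters TGAGTCA, held by 5.20%, were in none of the 13. The GC share of the windows was 72.0% for Irs2 and 71.3% for Irs1, against a median of 52.7% for all windows. A match of letters is a description and not a binding site, and the motifs were chosen with these sequences in view.

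Levels are given in FPKM, as the authors made them. These are the fragments on a gene per kilobase of its length, scaled by a total for each library. The fragments on genes numbered 16240688 to 19509225 a library. The total implied by the FPKM was above the fragments on genes in every Ctrl and Ep2 library, and below in every Ep1 library. It was 18464590 against 18556416 in Ep1 replicate 1 and 19061166 against 18575984 in Ep2 replicate 1. The part of this scaling in the results was not tested. Of the 12 endothelial marker genes, 9 stayed below 1 FPKM in every library, among them Pecam1, whose levels ran from 0.0821 to 0.242 FPKM, and Kdr, with 0.0239 to 0.0594 FPKM. Erg and Emcn were at 0 throughout (at this depth a 0 still leaves room for up to 3 fragments by counting error). Flt1 reached 6.66 to 11.7 FPKM and Egfl7 1.23 to 2.46 FPKM. Of the 6 epithelial markers, the keratin genes Krt8, Krt18 and Krt19 were high, with 562 to 714, 230.5 to 332 and 135 to 324 FPKM. Epcam was low at 0.607 to 2.03 FPKM, Cdh1 stayed at 0.0118 to 0.103 FPKM and Krt7 was at 0 throughout. Most defining endothelial markers thus go against the label, the epithelial list was mixed, and the cells are called by the name of the line here. The summed level of the 12 endothelial markers ran from 10.2 to 10.4 FPKM in Ctrl, 10.3 to 11.8 FPKM in Ep1 and 13.3 to 14.4 FPKM in Ep2. Flt1 carried the higher sum in Ep2, with means of 6.90, 7.25 and 10.9 FPKM, while Egfl7 had 2.09, 2.21 and 1.65 FPKM and Cdh5 0.857, 0.979 and 0.753 FPKM. The summed level of the 6 epithelial markers ran from 1029 to 1081, from 937 to 1041 and from 1155 to 1372 FPKM. The part of these shifts in the results below was not tested. In bulk RNA, fewer cells of a type and less RNA per cell cannot be told apart.

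Irs2 was the member that changed most, and it was higher at both light doses by amounts that could not be told apart. Of the 10 genes, 9 reached 1 FPKM in at least 3 libraries and were tested with limma on log2(FPKM + 1), among 11727 genes in all. In Ep1 against Ctrl, 1 of the 9 passed at an adjusted p under 0.05, against 11.3% of all tested genes. In Ep2 against Ctrl, 3 of the 9 passed, Irs2 and Igf1r higher and Akt1 lower, against 53.2% of all tested genes. In Ep2 against Ep1, 0 of the 9 passed, against 44.0% of all tested genes. In that comparison 1 member, Akt2, had an unadjusted limma value under 0.05, and voom on the fragments, the other method used, also passed 0 of the members. The median log2 fold change of the 9 genes was 0.00, 0.04 and 0.02 in these comparisons, and that of all tested genes was -0.01, -0.03 and -0.01. Ep1 and Ep2 were set against the same Ctrl libraries, so these results are not independent of each other.

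**Figure D1:**
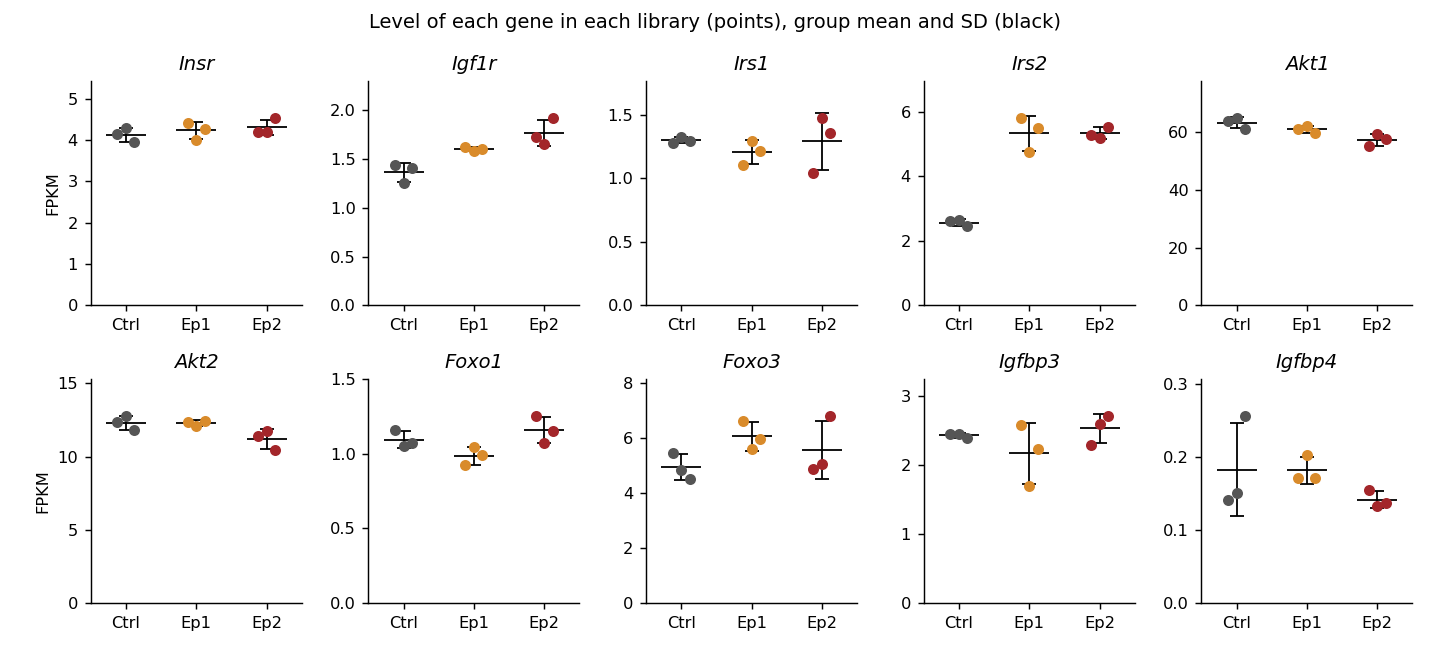
Level in FPKM (vertical axes, each from 0) of the 10 genes in the 9 libraries. Points are libraries and black marks are the group mean and SD over 3 libraries. The Irs2 libraries of Ep1 and Ep2 sit between 4.74 and 5.80 FPKM, all above the Ctrl libraries, while in every other panel except that of Igf1r some groups overlap.

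Irs2, one of the widely expressed adaptors, stood at 2.60, 2.64 and 2.44 FPKM in the Ctrl libraries. It stood at 5.80, 4.74 and 5.49 FPKM in Ep1 and at 5.29, 5.19 and 5.54 FPKM in Ep2. Every treated library lay well above every Ctrl library, and the Ep1 and Ep2 libraries overlapped. The mean rose from 2.56 ± 0.105 FPKM (SD, n = 3) in Ctrl to 5.34 ± 0.542 in Ep1 and 5.34 ± 0.181 in Ep2, which is 2.08-fold in either case. On the log2(FPKM + 1) scale the rise was 0.83 in Ep1 (95% interval 0.68 to 0.98, limma adjusted p = 0.00191) and 0.83 in Ep2 (0.68 to 0.99, adjusted p = 1.63e-05). The pseudocount of 1 holds these values below the fold of the means, and voom gave 1.04 and 1.08. The difference between the doses was 0.00 with a 95% interval of -0.15 to 0.16 (adjusted p = 0.976).

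Among all tested genes, the Irs2 rise was rank 61 from the largest in Ep1 and rank 140 in Ep2. By its p-value Irs2 was rank 3 in Ep1 and rank 340 in Ep2. Irs2 was also the only one of the 9 tested members to be a differentially expressed gene (DEG), with an absolute log2 fold change above 0.6 beside the adjusted p, in Ep1 and in Ep2. DEGs made up 0.793% of tested genes in Ep1, 9.17% in Ep2 and 5.90% in Ep2 against Ep1. The rise rests on 287 to 327 fragments a library in Ctrl, 503 to 677 in Ep1 and 582 to 638 in Ep2. It passed the test in all 16 other settings and omissions of a library, with adjusted p between 3.02e-06 and 0.0189 in Ep1 and between 1.18e-08 and 0.000159 in Ep2.

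Irs1, the adaptor with the same place in the pathway, did not follow. It stood at 1.28, 1.33 and 1.30 FPKM in Ctrl, at 1.11, 1.30 and 1.22 FPKM in Ep1 and at 1.04, 1.47 and 1.36 FPKM in Ep2. All groups overlapped, and the Ep2 libraries spread the most. Irs1 had a log2 fold change of -0.06 in Ep1 (95% interval -0.27 to 0.15, adjusted p = 0.701) and -0.01 in Ep2 (-0.22 to 0.19, adjusted p = 0.932), so these libraries leave room for a change of that size in either direction. The intervals of Irs1 end far below those of Irs2 on this scale. The pseudocount of 1 compresses Irs1 more, as its level is lower. With a pseudocount of 0.1 its SE in Ep1 was 0.153, against 0.0913. Voom gave -0.13 in Ep1 (SE 0.125) and -0.01 in Ep2 (SE 0.123).

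The balance of the adaptor transcripts moved with Irs2. The ratio of Irs2 to Irs1 in FPKM was 2.03, 1.995 and 1.89 in the Ctrl libraries. The ratio was 5.24, 3.66 and 4.50 in Ep1 and 5.07, 3.52 and 4.09 in Ep2. Every treated library stood above every Ctrl library in this ratio. As a share of the summed FPKM of the pair, Irs2 went from 66.3% ± 0.851 (SD, n = 3) in Ctrl to 81.4% ± 2.74 in Ep1 and 80.6% ± 2.82 in Ep2. The sum itself was 3.86 ± 0.115, 6.55 ± 0.453 and 6.63 ± 0.282 FPKM. The remaining adaptor genes of the family were almost absent, with Irs4 listed at 0 in every library and Irs3 at no more than 0.0258 FPKM.

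**Figure D2:**
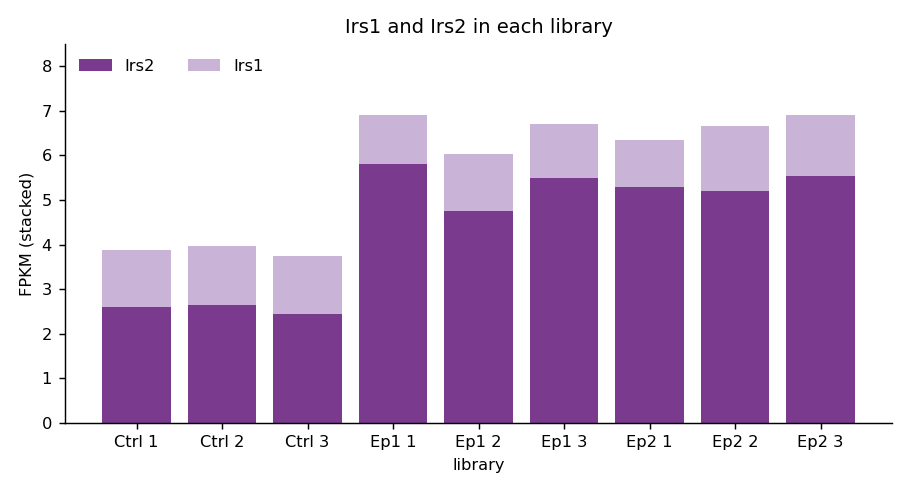
Stacked bars of the Irs2 and Irs1 levels in FPKM (vertical axis from 0) in each of the 9 libraries (horizontal axis). The Irs2 part is taller in all 6 treated libraries than in the 3 Ctrl libraries, and the Irs1 part stays between 1.04 and 1.47 FPKM.

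The receptors moved less. Igf1r, which binds the insulin-like growth factors, stood at 1.44, 1.25 and 1.40 FPKM in Ctrl, at 1.62, 1.58 and 1.60 FPKM in Ep1 and at 1.73, 1.66 and 1.92 FPKM in Ep2. The groups did not overlap in any comparison, with Ep1 above Ctrl and Ep2 above Ep1. Igf1r had a log2 fold change of 0.14 in Ep1 (95% interval -0.02 to 0.30, adjusted p = 0.234) and 0.23 in Ep2 (0.06 to 0.39, adjusted p = 0.0239), so that Igf1r passed in Ep2. At these low levels the pseudocount compresses the change, and Igf1r had 0.35 in Ep2 with a pseudocount of 0.1 (adjusted p = 0.0230) and 0.39 with voom (adjusted p = 0.000638). The call in Ep2 was lost without Ctrl replicate 2 (adjusted p = 0.0860), without Ep2 replicate 3 (0.0830) and in a fit of only Ctrl and Ep2 (0.0582). Between the doses the log2 difference was 0.09 (-0.07 to 0.25, adjusted p = 0.346).

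Insr, the insulin receptor itself, stood at 4.15, 4.30 and 3.96 FPKM in Ctrl, at 4.43, 4.01 and 4.28 FPKM in Ep1 and at 4.20, 4.20 and 4.53 FPKM in Ep2. All groups overlapped. Its log2 fold change was 0.03 in Ep1 (95% interval -0.10 to 0.15) and 0.05 in Ep2 (-0.08 to 0.17), with adjusted p of 0.777 and 0.496. Insr had the tightest intervals of the members below 10 FPKM, with 925 to 1157 fragments in each library. The ratio of Insr to Igf1r per kilobase was 3.05 ± 0.341 (SD, n = 3) in Ctrl, 2.65 ± 0.0975 in Ep1 and 2.44 ± 0.0889 in Ep2.

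The AKT kinases are the branch point below PI3K, and Akt1 was the most abundant member. Its level was 63.8, 64.8 and 61.2 FPKM in Ctrl, 61.0, 62.2 and 59.9 FPKM in Ep1 and 55.2, 59.2 and 57.5 FPKM in Ep2. The Ep2 libraries lay below all others, and Ctrl and Ep1 overlapped. In Ep2 Akt1 fell by 0.14 in log2 terms (95% interval -0.23 to -0.05, adjusted p = 0.0168), and its log2 fold change in Ep1 was -0.05 (-0.14 to 0.04, adjusted p = 0.449). The call in Ep2 was lost with each library centred on its median (-0.09, adjusted p = 0.0800), without Ctrl replicate 1 (0.0545) and without Ctrl replicate 2 (0.0680).

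Akt2, the isoform best known for insulin-stimulated glucose uptake, stood at 12.4, 12.8 and 11.8 FPKM in Ctrl, at 12.4, 12.1 and 12.4 FPKM in Ep1 and at 11.4, 11.7 and 10.4 FPKM in Ep2. The Ep2 libraries were again the lowest, without overlap. The log2 fold change in Ep2 was -0.13 (95% interval -0.25 to -0.01) with an adjusted p of 0.0629. It became -0.16 (adjusted p = 0.0451) without Ep2 replicate 2, but -0.08 without Ep2 replicate 3 (adjusted p = 0.195) and with median centring (adjusted p = 0.215). The ratio of Akt1 to Akt2 per kilobase was 5.14 ± 0.0540 (SD, n = 3) in Ctrl, 4.97 ± 0.173 in Ep1 and 5.14 ± 0.355 in Ep2, and its groups overlapped.

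**Figure D3:**
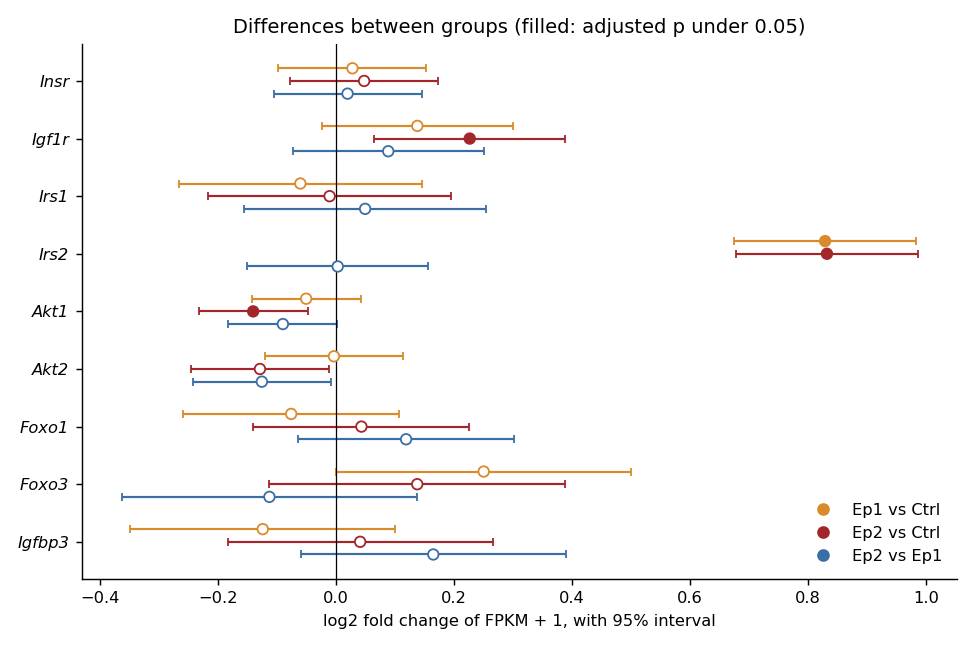
Log2 fold change of FPKM + 1 (horizontal axis) with its 95% interval from limma for the 9 tested genes (vertical axis) in the 3 comparisons, by colour. Filled points passed at an adjusted p under 0.05. Irs2 stands apart at 0.83 in Ep1 and Ep2 against Ctrl, and all other points lie between -0.14 and 0.25.

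The FOXO factors did not pass in any comparison. Foxo3, the more abundant, stood at 5.44, 4.81 and 4.52 FPKM in Ctrl, at 6.60, 5.58 and 5.96 FPKM in Ep1 and at 4.85, 5.04 and 6.78 FPKM in Ep2. All Ep1 libraries were above all Ctrl libraries, while Ep2 overlapped with the other groups and held the highest library of all. The log2 fold change was 0.25 in Ep1 (95% interval 0.00 to 0.50, adjusted p = 0.170) and 0.14 in Ep2 (-0.11 to 0.39, adjusted p = 0.324). Without Ep2 replicate 3 the value in Ep2 was 0.0082 (adjusted p = 0.945). The difference between the doses, -0.11 (adjusted p = 0.443), became -0.24 with an adjusted p of 0.0475 when Ep2 replicate 3 was left out.

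Foxo1 stood at 1.16, 1.05 and 1.08 FPKM in Ctrl, at 0.925, 1.05 and 0.995 FPKM in Ep1 and at 1.25, 1.07 and 1.15 FPKM in Ep2. The Ep1 libraries were the lowest, by a narrow gap, and Ctrl and Ep2 overlapped. Foxo1 had a log2 fold change of -0.08 in Ep1 (95% interval -0.26 to 0.11) and 0.04 in Ep2 (-0.14 to 0.23), with adjusted p of 0.574 and 0.679. Here too the pseudocount compresses the change, and voom gave -0.17 in Ep1 (adjusted p = 0.387) and 0.10 in Ep2 (adjusted p = 0.493). With 148 to 207 fragments in each library, counting alone gives Foxo1 an error of 7.41% to 8.08%.

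The binding proteins among the members, which are secreted and hold insulin-like growth factors away from their receptors, were low. Igfbp3 stood at 2.45, 2.45 and 2.39 FPKM in Ctrl, at 2.58, 1.70 and 2.24 FPKM in Ep1 and at 2.30, 2.60 and 2.71 FPKM in Ep2. The Ctrl libraries were nearly equal and lay inside the range of the treated ones. The log2 fold change was -0.12 in Ep1 (95% interval -0.35 to 0.10) and 0.04 in Ep2 (-0.18 to 0.27), with adjusted p of 0.443 and 0.752. The value in Ep1 was -0.012 without Ep1 replicate 2 and -0.22 without Ep1 replicate 1, and that in Ep2 was 0.0049 without Ep2 replicate 3 and 0.091 without Ep2 replicate 1. Igfbp4 rested on 10 to 21 fragments in each library. Its levels were 0.141, 0.150 and 0.256 FPKM in Ctrl, 0.172, 0.203 and 0.171 FPKM in Ep1 and 0.154, 0.133 and 0.136 FPKM in Ep2. It did not reach 1 FPKM anywhere and was not tested, and voom on the fragments gave log2 fold changes of 0.03 in Ep1 (adjusted p = 0.966) and -0.28 in Ep2 (adjusted p = 0.558).

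Counted by libraries that did not overlap, 4 of the 9 tested members were apart in Ep1 against Ctrl, against 41.3% of all tested genes. These were Irs2, Igf1r and Foxo3 on the higher side and Foxo1 on the lower. In Ep2 against Ctrl 4 members were apart, against 59.7% of all tested genes, with Irs2 and Igf1r higher and Akt1 and Akt2 lower. In Ep2 against Ep1 4 members were apart, against 54.4% of all tested genes, with Igf1r and Foxo1 higher and Akt1 and Akt2 lower. In each case the share of members was near or below that of all tested genes.

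In the order of mean FPKM over the 9 libraries, Akt1 (60.5 FPKM) and Akt2 (11.9 FPKM) came before Foxo3 (5.51 FPKM), Irs2 (4.42 FPKM) and Insr (4.23 FPKM). Igfbp3 (2.38 FPKM), Igf1r (1.58 FPKM), Irs1 (1.27 FPKM), Foxo1 (1.08 FPKM) and Igfbp4 (0.168 FPKM) followed. The place of Irs2 depended on the group. In Ctrl it lay below Insr in every library, and in Ep1 and Ep2 above Insr in every library. Irs2 and Foxo3 were apart in Ctrl and overlapped in Ep1 and in Ep2. Of the other neighbours, Igf1r and Irs1 overlapped in Ctrl, and Irs1 and Foxo1 overlapped in Ep2. Among all tested genes, the mean level of Akt1 was at the 92.8 percentile, that of Irs2 at the 35.0 and that of Foxo1 at the 4.76 percentile.

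The 3 tested genes whose log2(FPKM + 1) followed Irs2 most closely over the 9 libraries were Ppp1r10, a regulatory subunit of protein phosphatase 1 (Pearson r = 0.987), Sf1, a splicing factor (r = 0.983), and Wwtr1, the transcriptional coactivator TAZ (r = 0.982). Ppp1r10 had mean levels of 18.2, 47.8 and 41.9 FPKM in Ctrl, Ep1 and Ep2. Sf1 had 47.0, 56.96 and 56.96 FPKM, and Wwtr1 had 44.8, 53.2 and 53.0 FPKM. Each had its step between Ctrl and Ep1, as Irs2 did. Among the members, Igf1r was the closest to Irs2 (r = 0.84) and Akt1 the farthest (r = -0.67). These values describe libraries that share the group steps and the scaling, and the genes were picked for their likeness.

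The other genes of the pathway were taken from 6 lists of 76 genes, of which 57 were tested. In Ep1, 6 of the 57 were higher and 3 lower, where 6.32% of all tested genes were higher and 4.97% lower. In Ep2, 21 were higher and 15 lower, where 23.9% of all tested genes were higher and 29.3% lower. In Ep2 against Ep1, 14 were higher and 12 lower, where 18.8% and 25.2% of all tested genes were. Median centring turned the split of all calls from 2800 higher and 3436 lower to 3311 and 2971 in Ep2 against Ctrl, and from 2206 and 2950 to 2974 and 2383 in Ep2 against Ep1. The median log2 fold change of the 57 genes was 0.02, 0.07 and 0.01 in the 3 comparisons. The 9 calls in Ep1 ranged from 2 to 18 when a library was left out. They numbered 2 without Ctrl replicate 1, Ctrl replicate 2, Ep1 replicate 1 or Ep1 replicate 3, 3 without Ep1 replicate 2, 4 without Ctrl replicate 3 or Ep2 replicate 2, and 18 without Ep2 replicate 1. With the replicate number as a block there were 5. The calls in Ep1 named below were not followed gene by gene through these omissions.

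**Figure D4:**
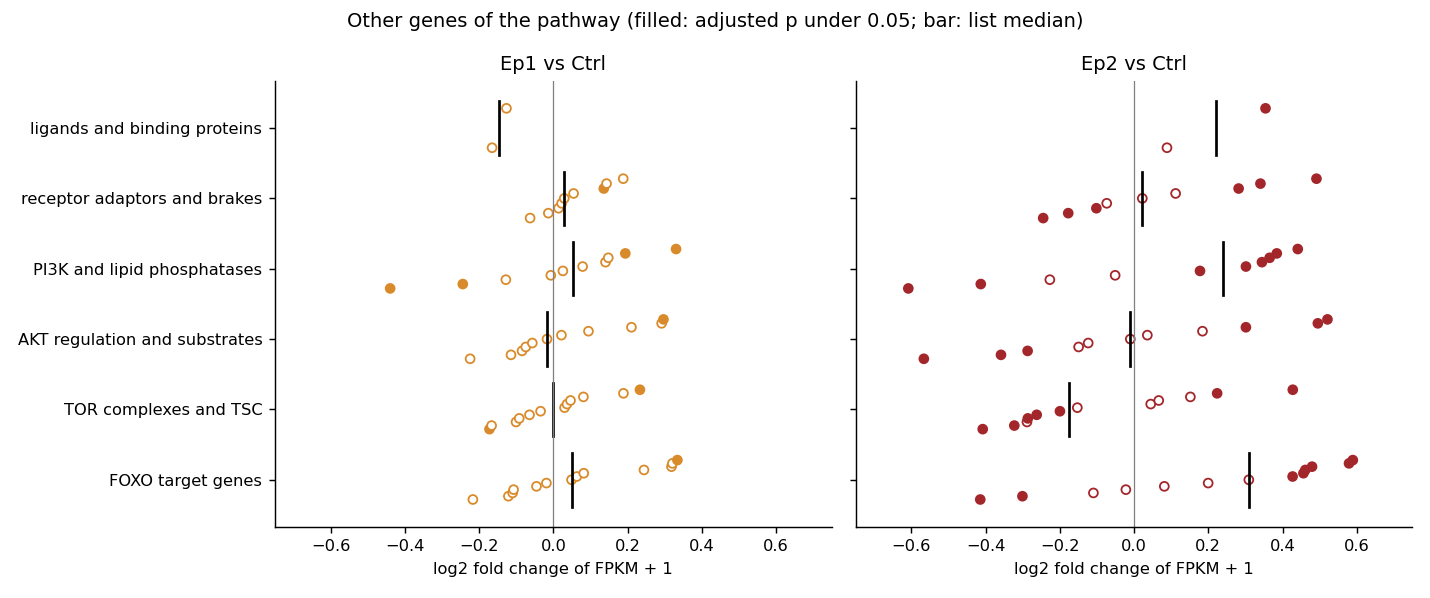
Log2 fold change of FPKM + 1 (horizontal axes) of the 57 tested pathway genes by list (vertical axis), in Ep1 and Ep2 against Ctrl. Points are genes, filled where the adjusted p was under 0.05, and black bars are list medians. The filled points number 9 in Ep1 and 36 in Ep2.

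The ligands Igf1 and Igf2 were at or near 0, with Igf2 listed at 0 in every library and Igf1 above 0 in 1 library. The binding protein genes Igfbp1, Igfbp2 and Igfbp5 were listed at 0 throughout. Of the 9 genes of that list 2 were tested. Igfbp6, which prefers IGF2, was the most abundant binding protein, with 81.0, 87.4 and 82.4 FPKM in Ctrl, 81.7, 70.1 and 71.9 FPKM in Ep1 and 117, 108 and 97.0 FPKM in Ep2. The Ep2 libraries were the highest, and Igfbp6 rose by 0.35 in Ep2 (SE 0.077, adjusted p = 0.00375). Igf2r, the receptor that clears IGF2, did not pass against Ctrl at either dose and was higher in Ep2 than in Ep1 (log2 difference 0.22, adjusted p = 0.00213).

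Of 9 tested adaptors and brakes of the receptors, 3 were higher and 3 lower in Ep2, against 23.9% and 29.3% of all tested genes. Their median was 0.02, against -0.03 for all tested genes. Grb10, an adaptor that restrains insulin receptor signalling, had 31.5, 31.0 and 31.4 FPKM in Ctrl, 34.3, 33.7 and 35.5 FPKM in Ep1 and 44.1, 44.1 and 45.2 FPKM in Ep2. Its groups did not overlap in any comparison, with a rise of 0.14 in Ep1 (adjusted p = 0.0434) and of 0.49 in Ep2 (adjusted p = 9.84e-06). Sh2b2, an adaptor that binds the activated insulin receptor, fell by 0.24 in Ep2 (adjusted p = 0.0350). Socs3, a feedback inhibitor known to act on IRS proteins, rose by 0.34 in Ep2. It is named beside the rule for its place next to the adaptors, with its values already seen. In the same list, Ptpn1 fell by 0.10 in Ep2 (adjusted p = 0.0469). Socs1 had a log2 fold change of -0.07 in Ep2 (adjusted p = 0.484).

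The PI3K and lipid phosphatase genes had 6 of 10 higher and 2 lower in Ep2, against 23.9% and 29.3% of all tested genes. Their median was 0.24, against -0.03 for all tested genes. Pik3r2, a regulatory subunit of PI3K that binds phosphorylated IRS proteins, had 37.99, 36.3 and 35.4 FPKM in Ctrl, 27.2, 26.3 and 26.6 FPKM in Ep1 and 24.6, 24.5 and 21.9 FPKM in Ep2. No groups overlapped, and the gene fell by 0.44 in Ep1 (adjusted p = 0.00538) and by 0.61 in Ep2 (adjusted p = 2.09e-05). The regulatory subunit gene Pik3r3 went the other way, with log2 fold changes of 0.33 in Ep1 (adjusted p = 0.0449) and 0.38 in Ep2 (adjusted p = 0.00532). Pdpk1, the kinase that phosphorylates AKT, rose by 0.44 in Ep2 (adjusted p = 7.36e-05). Inppl1, the lipid phosphatase SHIP2, fell by 0.24 in Ep1 (adjusted p = 0.0332) and by 0.41 in Ep2 (adjusted p = 0.000358). Pik3cd, a catalytic subunit, was higher in Ep2 than in Ep1 by 0.49 (adjusted p = 0.00166).

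Of 11 tested AKT regulators and substrates, 3 were higher and 3 lower in Ep2, against 23.9% and 29.3% of all tested genes. Their median was -0.01, against -0.03 for all tested genes. Gsk3b, a kinase that AKT inhibits, had 8.51, 8.25 and 8.82 FPKM in Ctrl, 10.97, 10.4 and 10.8 FPKM in Ep1 and 12.3, 12.2 and 12.9 FPKM in Ep2. It rose without overlap by 0.30 in Ep1 (adjusted p = 0.00879) and by 0.50 in Ep2. Trib3, a pseudokinase reported to bind AKT, rose by 0.52 in Ep2 (adjusted p = 0.0223). Bad, a death-promoting protein that AKT phosphorylates, fell by 0.57 in Ep2 (adjusted p = 0.000122) and its log2 fold change in Ep1 was -0.06 (adjusted p = 0.615).

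Of 12 genes of the TOR complexes and TSC, 2 were higher and 5 lower in Ep2, against 23.9% and 29.3% of all tested genes. Their median was -0.18, against -0.03 for all tested genes. Rictor, the subunit that defines TORC2, the kinase complex for AKT, rose by 0.23 in Ep1 (adjusted p = 0.0322) and by 0.43 in Ep2 (adjusted p = 0.000211). Mtor itself fell by 0.17 in Ep1 (adjusted p = 0.0455) and by 0.20 in Ep2 (adjusted p = 0.00554). Mapkap1, which encodes another TORC2 subunit, fell by 0.41 in Ep2 (adjusted p = 0.00969). Its libraries had 7.24, 10.4 and 9.82 FPKM in Ep2, against 11.7 to 13.0 FPKM in Ctrl. Between the doses, Tsc1 was higher in Ep2 by 0.22 (adjusted p = 0.0260) and Deptor, an inhibitor of mTOR, lower by 0.33 (adjusted p = 0.0436). The Deptor libraries had 7.69, 10.0 and 11.8 FPKM in Ep2, against 12.4 FPKM in each Ep1 library.

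Of 20 genes listed as FOXO targets, 13 were tested. In Ep1, 1 was higher, against 6.32% of all tested genes. In Ep2, 6 were higher and 2 lower, against 23.9% and 29.3% of all tested genes. The medians of the list were 0.05 and 0.31, against -0.01 and -0.03 for all tested genes. Bcl2l11, which encodes the death-promoting protein BIM, had 7.42, 7.31 and 7.20 FPKM in Ctrl, 9.88, 8.55 and 10.1 FPKM in Ep1 and 9.02, 10.1 and 11.5 FPKM in Ep2. It rose in Ep1 by 0.33 (adjusted p = 0.0358) and in Ep2 by 0.43 (adjusted p = 0.00214), with all treated libraries above Ctrl. Ccng2, a cyclin linked to cell cycle arrest, rose by 0.59 in Ep2 (adjusted p = 0.00683), where its libraries had 14.0, 8.57 and 9.96 FPKM, against 6.51 to 6.94 FPKM in Ctrl. Angpt2, an antagonist of the endothelial receptor TIE2, was higher in Ep2 than in Ep1 by 0.62 (adjusted p = 0.000124). Sesn1, a stress-induced inhibitor of TORC1, fell by 0.41 in Ep2 (adjusted p = 0.000976), and Sod2, the mitochondrial superoxide dismutase, was lower in Ep2 than in Ep1 by 0.28 (adjusted p = 0.00348). Pck1 and G6pc, the gluconeogenic targets known from liver, were listed at 0 in every library. The list holds genes that other factors also drive.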

How the data were processed

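The authors deposited FPKM values for each gene and library, made from reads aligned to mouse. These are fragments scaled by gene length and by a total for each library. Bowtie 0.12.2 and mm8 stand in the submitters' processing notes, the methods name a later assembly, and the listed coordinates overlapped RefSeq on GRCm38 for 99.9% of 37624 genes matched by symbol, so positions are given on GRCm38. The counting tool is not given in the sources used here. The 9 single tables equalled the joint table. FPKM times length gave whole fragments within 0.05 for all values.

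Groups follow the sample labels. log2(FPKM + 1) of the 11727 genes with at least 1 FPKM in at least 3 libraries was fitted for all 9 libraries in limma 3.58.1 (R 4.3.3, trend and robust, no covariate), with two-sided tests and Benjamini-Hochberg adjustment within each comparison. The alternatives were no filter, a minimum of 5 FPKM, a pseudocount of 0.1, median centring, a replicate block, only the groups compared, voom on fragments (at least 10 in at least 3 libraries) and leaving out each library. On simulated data for Ep2 against Ctrl, with 11727 genes, the test called 176 of 200 genes changed by 1 on the log2 scale, and 10 unchanged genes. This does not show how the test does with smaller changes. Nor does it cover data where many genes change, as here, where 53.2% passed in Ep2 against Ctrl. Tables and figures were made with Python 3.11.15, numpy 2.4.6, pandas 2.3.3 and matplotlib 3.10.9. Promoters came from RefSeq. The members and lists were chosen with earlier results of these data known. All 10 members are named. From each pathway list the largest rise and fall among the genes that passed in each comparison are named, with any other gene picked with its values in view. A gene of the lists enters the counts and is not reported here.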

Additional observations from a re-analysis of the deposited data

Results flagged for a closer look

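None of the 9 tested members had opposite directions at the 2 doses together with a difference between the doses that passed. Of the 57 other pathway genes tested, 10 did, by the limma test of Ep2 against Ep1. That test passed 44.0% of all tested genes, and the share that also had opposite directions was not counted over all genes. Igfbp6 had a log2 fold change of -0.16 in Ep1 and 0.35 in Ep2, a difference of 0.52 (adjusted p = 0.000622). Angpt2 had -0.05 and 0.58, a difference of 0.62 (adjusted p = 0.000124), and Pik3cd had -0.13 and 0.37, a difference of 0.49 (adjusted p = 0.00166). Cited2 had -0.11 and 0.20, a difference of 0.31 (adjusted p = 0.0125). Tsc1 had -0.06 and 0.15, a difference of 0.22 (adjusted p = 0.0260), and Igf2r had -0.13 and 0.09, a difference of 0.22 (adjusted p = 0.00213). In the other direction, Sh2b2 had 0.03 and -0.24, a difference of -0.27 (adjusted p = 0.0263), and Deptor had 0.04 and -0.29, a difference of -0.33 (adjusted p = 0.0436). Akt1s1 had 0.03 and -0.29, a difference of -0.32 (adjusted p = 0.00131), and Mlst8 had 0.05 and -0.26, a difference of -0.31 (adjusted p = 0.00719). None of these 10 passed in Ep1 against Ctrl, so opposite directions were not established for any of them. Cited2, Tsc1, Igf2r and Deptor did not pass in Ep2 against Ctrl either.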

How the results depend on the processing

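The number of members past the test in Ep1 against Ctrl was 1 in every setting and omission. In Ep2 against Ctrl it was 3, lay between 2 and 3 in the other settings and between 1 (without Ctrl replicate 2) and 4 (without Ep2 replicate 2) when a library was left out. In Ep2 against Ep1 it was 0, and between 0 and 1 (Foxo3, without Ep2 replicate 3) when a library was left out. Only 4 members could be tested with the minimum of 5 FPKM. Libraries with the same replicate number did not deviate together (correlations of deviations between -0.056 and 0.074 over 9 pairs). Pairs with different numbers ran from -0.108 to 0.153. The labels do not say whether libraries with the same number were handled together. The replicate block gave 1, 3 and 0 members and changed no member's call. Pathway genes past the test in Ep1 against Ctrl numbered 9, but 2 without a filter, 5 with the replicate block, 17 in the fit of only the groups compared and 2 to 18 when a library was left out. In Ep2 against Ctrl they numbered 36 (30 to 38 when a library was left out) and in Ep2 against Ep1 26 (15 to 31, the lowest without Ep1 replicate 3). All tested genes past the test in Ep1 against Ctrl numbered 1324, 396 without a filter, 2162 in the fit of only the groups compared, 1995 of 14112 with voom and 191 to 2183 when a library was left out. Voom passed 7049 in Ep2 against Ctrl and 5881 in Ep2 against Ep1. The log2 fold change of Irs1 in Ep2 turned from -0.011 to 0.036 with median centring. When a library was left out, small differences turned sign and none of these passed. In Ep2 against Ctrl Irs1 ran from -0.068 to 0.069. Between the doses, Irs1 ran from -0.0078 to 0.13, Irs2 from -0.067 to 0.055 and Insr from -0.012 to 0.046. In Ep1 Akt2 ran from -0.031 to 0.021. The cause was not tested. Depth limits Igfbp4, at 10 to 21 fragments a library.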
